A study of Mus musculus with 15 samples.

Results

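Jun and Klf6, transcription factors of the immediate early class, were 2 of the 9834 genes named on the arrays and were represented by 4 of 20205 probes, 2 for each gene. Probes 3296 and 5735 carried the symbol Jun and probes 421 and 1985 the symbol Klf6 in the platform annotation, with symbols updated through the Entrez identifier. RNA of a mouse lymphoid ES (embryonic stem) cell line after a treatment was co-hybridised with RNA of the same line without treatment on 15 two-colour cDNA arrays. The treated RNA was labelled with Cy5 on 8 arrays (numbers 1 to 8) and with Cy3 on 7 arrays (numbers 9 to 15, the dye swaps). The agent, dose and duration of the treatment, the origin of the line and the number of cultures are not given in the labels, whose protocol text speaks of organs and control animals rather than cells. ES cells are cultured pluripotent cells derived from the early embryo, and what makes this line lymphoid is not stated.

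Each value is the log2 ratio of both channels as deposited. A value above 0 likely means more RNA in the treated cells, a reading taken from the sign of placeholder values and not stated by the labels. The swaps are taken as already turned under this reading. The treatment estimate is the mean of both dye orientations, and the dye effect is their difference scaled by 0.5 (treated in Cy5 minus treated in Cy3). The genes were chosen by their measured log2 ratios in this same contrast, whose means lay on opposite sides of 0, so their treatment estimates are given as a description without a test. What the choice did not use is tested: the dye effect and how the probes vary together over arrays.

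Jun is the founding member of the AP-1 family of basic leucine zipper factors. It binds DNA as a dimer with Fos, Jun or ATF proteins, is activated through phosphorylation by the Jun N-terminal kinases, and is transcribed within minutes of growth factor, cytokine or stress signals. Klf6 is a Krüppel-like zinc finger factor that binds GC-rich and CACCC elements, is induced early after tissue injury, and is required for normal blood formation in the mouse embryo. Both genes are kept at a low basal level in many cell types, and their RNAs are short-lived.

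The promoter windows of both genes shared a site that the choice of genes did not use, and they are shown for that reason. Each window runs from 250 bases before to 50 bases after the RefSeq transcription start (GRCm38.p6). The Jun window is chr4:95052173-95052472 on the minus strand and the Klf6 window chr13:5861239-5861538 on the plus strand. Both are printed 5′ to 3′ in the direction of transcription, with the motif TGACATCA in capitals.
Jun: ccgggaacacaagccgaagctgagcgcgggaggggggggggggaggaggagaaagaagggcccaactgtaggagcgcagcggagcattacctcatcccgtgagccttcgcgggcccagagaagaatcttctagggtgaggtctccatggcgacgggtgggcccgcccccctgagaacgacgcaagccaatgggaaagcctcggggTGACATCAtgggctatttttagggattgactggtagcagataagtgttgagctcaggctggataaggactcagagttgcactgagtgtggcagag
Klf6: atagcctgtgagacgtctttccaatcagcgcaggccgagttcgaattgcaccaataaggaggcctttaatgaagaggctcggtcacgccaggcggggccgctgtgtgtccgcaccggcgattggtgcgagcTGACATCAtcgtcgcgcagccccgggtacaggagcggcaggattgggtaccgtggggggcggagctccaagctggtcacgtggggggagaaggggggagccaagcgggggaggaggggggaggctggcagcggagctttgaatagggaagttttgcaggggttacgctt
The motif begins 45 bases before the start in Jun and 119 bases before it in Klf6. It is an element through which Jun and ATF proteins are known to act on the Jun promoter.

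TGACATCA, searched on both strands, was present in 3.62% of 32851 promoter windows of the same length (1189 windows). It was picked after both windows had been read. The AP-1 element TGACTCA (5.20% of windows) and the cyclic AMP response element TGACGTCA (1.79%) had no match in either window. The GC box GGGCGG, to which SP and Krüppel-like factors bind, had 1 match in each window, as in 35.7% of all windows. The CCAAT box (CCAAT, 37.4% of windows) had 1 match in Jun and 4 in Klf6. None of these matches overlapped TGACATCA, and a match is a description of the letters, not of binding. Of 219 other fitted genes with TGACATCA in a window, 120 had a treatment estimate above 0 and 99 below, with a median of 0.013. Among 7634 genes with a window and without the motif, 3903 lay above 0 and 3731 below, with a median of 0.0027. None of 27 other immediate early genes with a window held it, and 1 of 16 genes listed around the Jun kinase route did, the phosphatase gene Dusp10.

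Arrays 7, 8 and 15 stood apart from the rest: their best partner over all probes gave r = 0.083 or less, where the other 12 arrays reached 0.126 to 0.318. The standard deviation over probes was 0.817 on array 7 and 0.738 on array 15, against 0.348 to 0.684 on the others, array 8 included (0.451). Between 19213 and 19973 probes per array had a measured value. On 3.61 to 16.1% of them the ratio came within 0.0015 (log2) of a fraction of small integers, none above 6, and such values are called dim here, against 1.06 to 2.17% around a shifted constant. Nothing in the labels ties arrays to cultures, so errors measure the spread between arrays.

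Of the 4 probes, Klf6 probe 421 kept 1 sign on the largest share of its arrays, lying below 0 on 14 of 15, with a spread of 0.49 (SD). Its values with the treated RNA in Cy5 ran from -1.43 (array 7) through a median of -0.71 to -0.068 (array 3). On the dye swaps they ran from -1.47 (array 9) through a median of -0.36 to 0.063 (array 12). All 8 arrays of the first orientation and 6 of the 7 swaps were thus low, and the ranges of both orientations overlapped almost entirely. The treatment estimate was -0.57 ± 0.12 (SE, n = 15 arrays), equivalent to a ratio of 0.676. Of the 15618 probes measured on every array, 0.186% were below 0 on as many arrays; since the choice rests on this contrast, nothing is read from it.

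Klf6 probe 1985 was lower than 0 on 10 of 15 arrays, with a similar spread (SD 0.51) around a mean nearer to 0. With the treated RNA in Cy5 the values ran from -0.66 (array 5) through a median of -0.44 to 0.67 (array 4), and 6 of 8 were below 0. On the swaps they ran from -0.86 (array 14) through a median of -0.036 to 0.65 (array 12), with 4 of 7 below 0. Arrays 4, 11 and 13 put this probe among the highest 10% of all values on the array, and arrays 1, 5, 6, 8 and 14 among the lowest 10%. The treatment estimate was -0.15 ± 0.12 (SE, n = 15), a ratio of 0.901. In the dye swaps alone the mean was 0.0039 ± 0.56 (SD, n = 7), against -0.30 ± 0.45 (SD, n = 8) with the treated RNA in Cy5. Without array 14 the estimate was -0.079, without arrays 7, 8 and 15 it was -0.11, and 14.7% of the probes measured on every array were below 0 on as many arrays.

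Jun probe 5735 was the higher of the Jun probes and lay above 0 on 11 of 14 arrays, with no value on array 2. With the treated RNA in Cy5 its values ran from -0.063 (array 5) through a median of 0.41 to 1.05 (array 1). On the swaps they ran from -0.10 (array 11) through a median of 0.26 to 0.96 (array 9). The distribution was uneven in both orientations: arrays 1, 3 and 9 stood near 1, and the 3 negative values were all within 0.1 of 0. One of the high values, on array 3, was dim. The treatment estimate was 0.34 ± 0.11 (SE, n = 14), a ratio of 1.27, and 0.44 ± 0.12 (SE) without arrays 7, 8 and 15. Of 2633 probes with values on 14 arrays, 3.46% were above 0 on as many.

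Jun probe 3296 stayed close to 0 on most arrays. With the treated RNA in Cy5 the values ran from -0.17 (arrays 5 and 7) through a median of -0.020 to 0.56 (array 3), 4 of 8 being above 0. On the swaps they ran from -0.29 (array 12) through a median of 0.046 to 0.84 (array 14), 5 of 7 being above 0. The values on arrays 1, 3 and 6 were dim. The treatment estimate was 0.11 ± 0.09 (SE, n = 15), a ratio of 1.08. Without array 14 it was 0.050. Above 0 on 9 of 15 arrays, the probe did not differ in this from the general run, as 32.7% of the probes measured on every array were above 0 on as many.

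**Figure D1:**
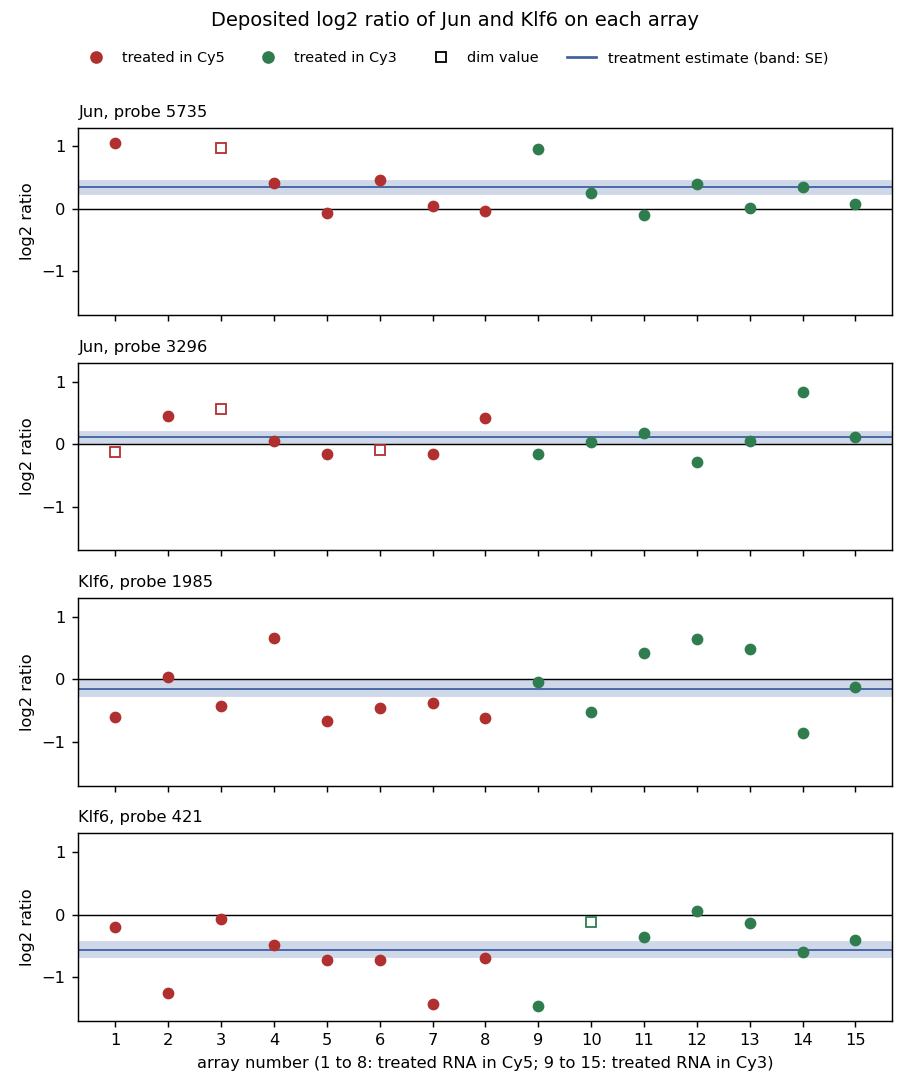
Log2 ratio (y axis) of each Jun and Klf6 probe on arrays 1 to 15 (x axis), red for the treated RNA in Cy5 and green for Cy3; open squares are dim values, the blue line is the treatment estimate and the band its SE. Klf6 probe 421 lies below 0 on all arrays but 12, Jun probe 5735 at or above 0 on most, and the other probes scatter on both sides.

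In order of their estimates, the probes ran from Jun 5735 over Jun 3296 and Klf6 1985 to Klf6 421. Neighbours in this order differed by less than the SD of their difference between arrays, which is not the error of the mean difference. Whether neighbours differ was not tested. Jun probe 5735 exceeded Jun probe 3296 on the same array by 0.25 ± 0.51 (SD, n = 14 arrays), being higher on 9 of 14. Jun probe 3296 exceeded Klf6 probe 1985 by 0.27 ± 0.68 (SD, n = 15), being higher on 10 of 15. Klf6 probe 421 was below Klf6 probe 1985 on 11 of 15 arrays, with a mean difference of -0.41 ± 0.63 (SD). Both probes of a gene thus had estimates on the same side of 0, with different sizes. Among 2107 genes with exactly 2 fitted probes, the estimates of a pair differed by a median of 0.12; those of Jun differed by 0.23 and those of Klf6 by 0.42, larger than in 76.6% and 93.6% of such genes.

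The place of a value among all values of its array, which takes out the unequal spread of the arrays, gave the same order. These places rank the same values on which the choice rests, so they are a description. Klf6 probe 421 lay at a median percentile of 9.04, within the lowest 10% on 9 of 15 arrays and in the lower part on 14. Klf6 probe 1985 had a median percentile of 20.4, ranging from 4.23 to 95.2. Jun probe 5735 lay at a median percentile of 76.7 and within the highest 10% on arrays 1, 3, 6 and 9. The median percentile of Jun probe 3296 was 55.9, with arrays 8 and 14 in the highest 10%. No array put a Jun probe in the lowest 10% of its values.

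The opposite signs of Jun and Klf6 were set side by side on each array, with the probes of a gene averaged (on array 2 Jun rests on probe 3296 alone). Jun lay above Klf6 on 13 of 15 arrays, with a mean difference of 0.60 ± 0.49 (SD, n = 15). With the treated RNA in Cy5 the difference was 0.76 ± 0.29 (SD), from 0.14 (array 4) to 1.05 (array 2), and Jun was higher on all 8 arrays. On the dye swaps it was 0.41 ± 0.63 (SD), from -0.30 (array 12) to 1.32 (array 14), and Jun was higher on 5 of 7. Signs were opposite on 9 arrays (1, 2, 3, 6, 8, 9, 10, 14 and 15), with Jun above 0 and Klf6 below. Both were below 0 on arrays 5 and 7 and both above 0 on arrays 4, 11, 12 and 13. No array had Jun below 0 and Klf6 above it.

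The contrast was widest between the outer probes. Jun probe 5735 was above Klf6 probe 421 on all 14 arrays that measured both, by 0.87 ± 0.60 (SD), from 0.15 (array 13) to 2.43 (array 9). The inner probes, Jun 3296 and Klf6 1985, differed by a mean of 0.42 on arrays 1 to 8 and 0.10 on the swaps, where Jun was the higher on 3 of 7 arrays. The gene means were above 0 on 13 of 15 arrays for Jun and below 0 on 11 of 15 for Klf6. Of 8297 genes measured on all arrays, 0.844% and 6.44% reached these counts in the same direction, given without a test because the members were chosen for them. Over the whole table, 10 of 19863 probes (0.0503%) passed limma's threshold for the treatment estimate, 5 above 0 (0.0252%) and 5 below (0.0252%).

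**Figure D2:**
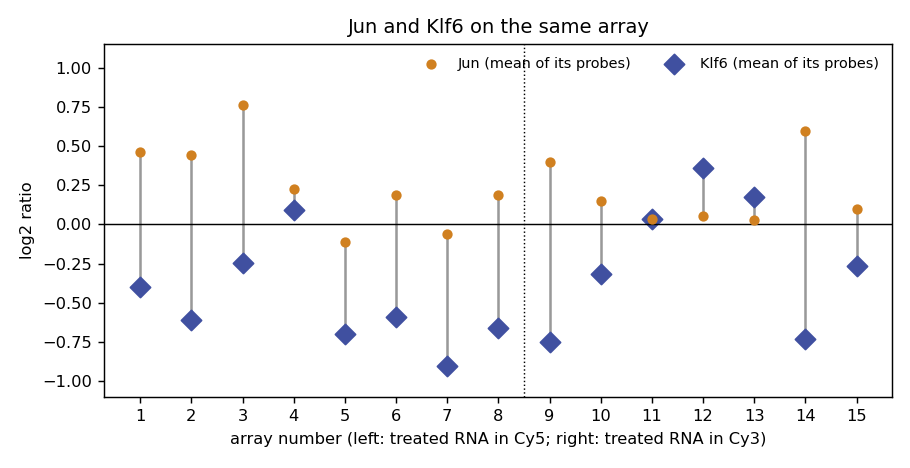
Mean log2 ratio (y axis) of the Jun probes (circles) and Klf6 probes (diamonds) on each array (x axis), joined by a line, with the dye orientations split by the dotted line. Jun is the higher on arrays 1 to 8; on the swaps, arrays 12 and 13 have Klf6 the higher and the markers of array 11 coincide.

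The dye effect, a comparison that the choice of the genes did not use, did not pass limma's threshold for any of the 4 probes. It was 0.0032 ± 0.09 (SE) for Jun probe 3296 (adjusted p = 0.990) and 0.062 ± 0.11 for Jun probe 5735 (adjusted p = 0.788). The small effects at Jun moved with single arrays: that of 3296 changed sign in 7 of 15 omissions of 1 array (-0.030 to 0.064), and that of 5735 ran from 0.0088 (without array 1) to 0.12 (without array 9). For Klf6 it was -0.13 ± 0.12 at probe 421 (adjusted p = 0.566) and -0.15 ± 0.12 at probe 1985 (adjusted p = 0.511). Between orientations, probes 421 and 1985 of Klf6 differed by -0.27 and -0.31 (log2, Cy5 minus Cy3). Over all probes, 545 of 19863 (2.74%) passed for this effect. Averaged over its probes, the dye effect was 0.034 ± 0.07 (SE) for Jun (adjusted p = 0.834 in limma) and -0.14 ± 0.09 for Klf6 (adjusted p = 0.426), where 2.61% of genes passed. If the swaps had not been turned before deposit, the dye effects would be the treatment estimates. The plain mean of Jun minus Klf6 over the 15 arrays, without a term for the orientation, would then shrink from 0.60 ± 0.13 (SE) to 0.22 ± 0.20.

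**Figure D3:**
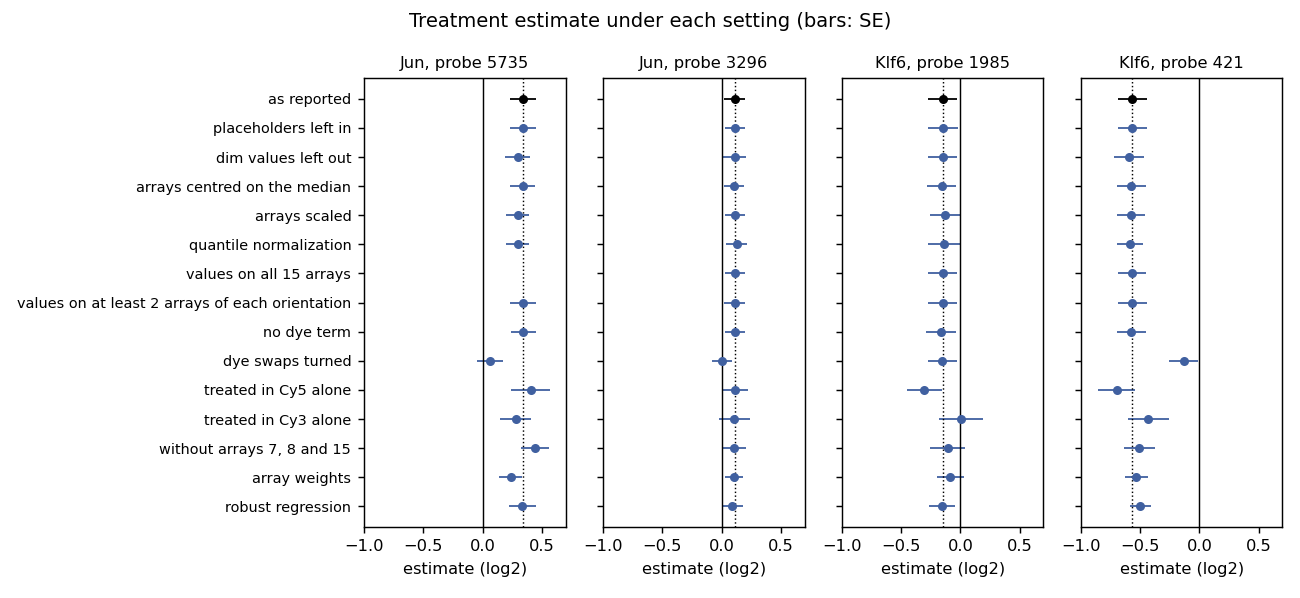
Treatment estimate (x axis, log2; bars, SE) of each Jun and Klf6 probe under the reported and 14 other settings (y axis). The points of Jun 3296, Jun 5735 and Klf6 421 move towards 0 with the swaps turned (0.0032, 0.062 and -0.13), and Klf6 1985 differs between the orientations (-0.30 and 0.0039); Jun 5735 has no point for values on all 15 arrays.

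How the probes moved together from array to array was also left unused by the choice. After the mean of each orientation was taken out, the Jun probes correlated at Pearson r = -0.0019 (permutation p = 0.995; Spearman rho = -0.17, permutation p = 0.573) over 14 arrays. The Klf6 probes correlated at r = 0.12 (permutation p = 0.689; rho = 0.13, permutation p = 0.646) over 15 arrays. Probes of the same gene therefore did not track each other detectably. Between the genes, r was 0.051 for Jun 3296 with Klf6 421 (permutation p = 0.854; rho = 0.055, permutation p = 0.849) and -0.33 for Jun 3296 with Klf6 1985 (permutation p = 0.262; rho = -0.16, permutation p = 0.590). For Jun 5735 r was 0.082 with Klf6 421 (permutation p = 0.790; rho = 0.25, permutation p = 0.401) and -0.077 with Klf6 1985 (permutation p = 0.786; rho = 0.095, permutation p = 0.755).

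None of these 6 relations passed after Benjamini-Hochberg adjustment (adjusted p = 0.995 for each r and 0.849 for each rho, two-sided). Leaving out the 2 arrays farthest from the median of the first probe, r was -0.48 for the Jun pair, 0.13 for the Klf6 pair, -0.073 for Jun 3296 with Klf6 421, 0.039 for Jun 3296 with Klf6 1985, 0.57 for Jun 5735 with Klf6 421 and 0.014 for Jun 5735 with Klf6 1985. The value of -0.33 rested on arrays 3 and 14; array 14 held the highest Jun 3296 and the lowest Klf6 1985 value. Without arrays 7, 8 and 15, r lay between -0.32 and 0.10.

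The probes whose pattern over arrays was most like each member were named by Pearson r over at least 12 shared arrays, as a description. For Jun 3296 these were Paqr4 (r = 0.82), 1700028P14Rik (0.82) and Nf1 (0.81), and for Jun 5735 Ocrl (0.86), Ttc39d (0.83) and Gtf2h1 (0.82). For Klf6 421 they were Irak1bp1 (0.87), Spryd7 (0.83) and Meaf6 (0.82), and for Klf6 1985 Slc25a23 (0.91), Pabpn1 (0.89) and Ipmk (0.86). The probes of 1 gene shared no neighbour among these. Each value is the top of about 13103 to 13258 named probes over 13 to 15 arrays, where 0.1% of probes reached 0.76 to 0.79.

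Jun acts as a dimer, and 11 of 21 listed AP-1 partners and relatives were measured. None passed limma's test over 9720 genes in either direction, where 4 genes (0.0412%) passed in all, 2 above 0 (0.0206%) and 2 below (0.0206%). Of these partners 7 had estimates above 0 and 4 below, and their median of 0.0055 stood beside 0.0054 over all genes; without arrays 7, 8 and 15, 3 were above and 8 below (median -0.015). Junb, a close relative of Jun that can oppose it, was at 0.18 ± 0.17 (SE, n = 15), but its value of 2.59 on array 12 carried this, and without that array it was at -0.014. Fosb and Fosl1, Fos proteins that pair with Jun, were at 0.0055 ± 0.07 and 0.0057 ± 0.08. The dye effect of Fosl1 was 0.24 ± 0.08 (SE, adjusted p = 0.0975 in limma), so its value near 0 averages orientations of opposite sign. Atf3, a stress-induced ATF factor, was at 0.13 ± 0.15, at 0.015 without array 7 and at -0.043 without arrays 7, 8 and 15. The lowest estimate was that of Atf4, the effector of the integrated stress response, at -0.32 ± 0.11 (adjusted p = 0.546 in limma), below 0 on 14 of 15 arrays; array 7 stood at -1.82. Mafg and Mafk, small Maf proteins, were at -0.11 ± 0.05 and -0.31 ± 0.27; without array 7, where it stood at -3.21, Mafk was at -0.052.

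Around the Jun kinase route, 19 of 30 listed kinases, phosphatases, ligases and upstream factors were measured and none passed, 11 above 0 and 8 below, with a median of 0.032. The list mixes activating kinases with phosphatases and ligases that act against them or against Jun, so its split has no single direction. Map2k4, which phosphorylates the Jun N-terminal kinases, was at 0.23 ± 0.09 (SE; adjusted p = 0.643 in limma) and above 0 on 10 of 15 arrays. The kinases Mapk8 and Mapk9 themselves were at 0.058 ± 0.06 and -0.030 ± 0.07. Their dye effects were larger, at 0.15 ± 0.06 and 0.20 ± 0.07 (SE, adjusted p = 0.201 and 0.144 in limma), so the orientations of each had opposite signs. Elk1 and Srf, which drive immediate early genes through the serum response element, were at 0.11 ± 0.05 and -0.17 ± 0.08.

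Of the family of Klf6, 12 of 24 listed KLF and SP factors were measured, and none passed in either direction; 7 estimates were above 0 and 5 below (median 0.0035). Klf9 was at 0.16 ± 0.07 (SE; adjusted p = 0.704 in limma) and above 0 on 13 of 15 arrays, Klf7 at 0.092 ± 0.05 and Klf5 at 0.12 ± 0.10 (0.055 without array 3). Klf13 was at -0.17 ± 0.08 (-0.066 without arrays 7, 8 and 15), while Klf3 and Sp1 were at -0.022 ± 0.08 and 0.00081 ± 0.08. Klf2, a factor of lymphocyte quiescence and of pluripotency, was at -0.35 ± 0.23, close to the mean of the Klf6 probes (-0.36 ± 0.09). This rested in large part on a value of -3.36 on array 1, without which it was at -0.15 ± 0.13. Klf4, a pluripotency factor, was at 0.067 ± 0.16 and, without array 15, at -0.071.

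**Figure D4:**
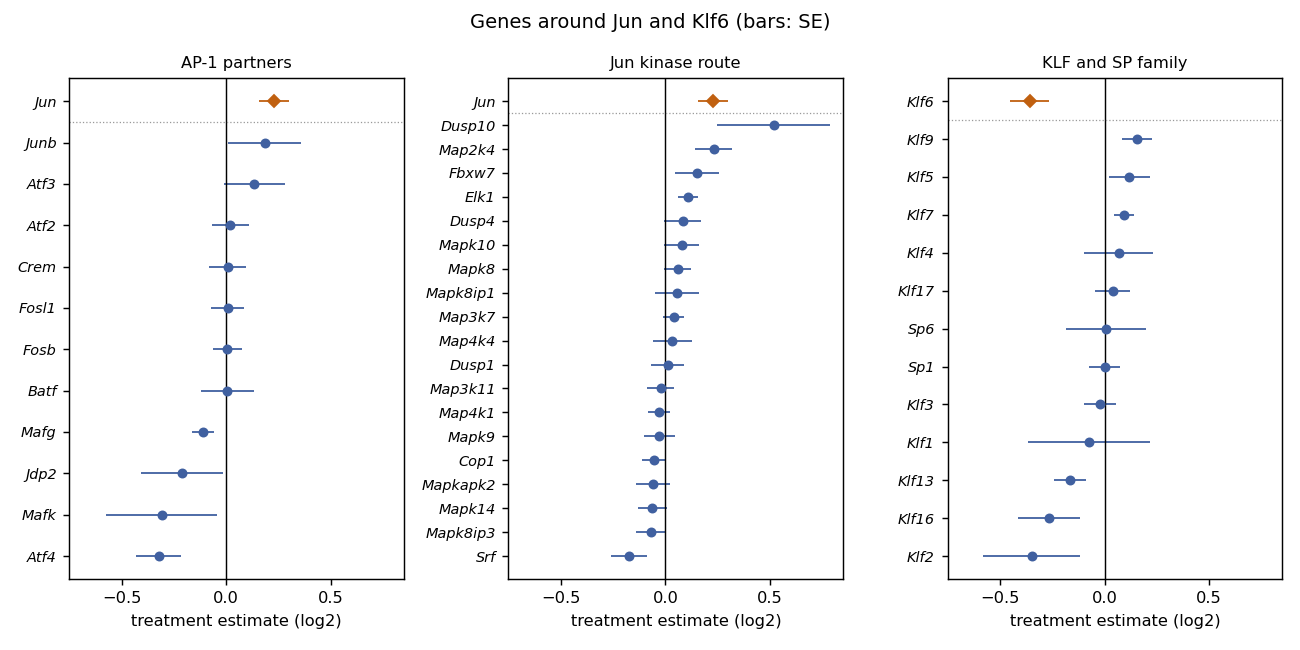
Treatment estimate (x axis, log2; bars, SE) of the measured AP-1 partners, members of the Jun kinase route and KLF and SP factors, with Jun or Klf6 (orange, mean of its probes) on top. Apart from Jun and Klf6, which were chosen for their estimates, most genes lie within 0.2 of 0. Atf4 is the lowest AP-1 partner (-0.32), Klf2 the lowest of its family (-0.35), and the kinase route reaches up to 0.52.

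Among other immediate early genes, 33 of 50 were measured and none passed; 12 estimates were above 0 and 21 below (median -0.092), whereas 48.0% of all genes were below 0. The 3 genes of smallest p were Ier3, an NF-kB induced survival gene, at -0.35 ± 0.08 (SE; adjusted p = 0.199 in limma), Btg2, an antiproliferative gene, at -0.27 ± 0.06, and Id2, an inhibitor of differentiation, at -0.55 ± 0.13 (-0.43 without array 7). With the swaps turned, 17 of these genes were above 0 and 16 below, so the split depends on the direction of the ratio. The list overlaps those of the families above. It was drawn up with earlier results of these data known, so its split is a description and nothing is read from the excess below 0.

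Genes described as targets did not pass either. Of 20 measured Jun targets, 8 had estimates above 0 and 12 below (median -0.015), and the collagenase gene Mmp13, a classical AP-1 target, was at -0.36 ± 0.08 (SE; adjusted p = 0.145 in limma) and below 0 on 13 of 15 arrays. The calcium-binding proteins S100a4 and S100a9 were at -0.16 ± 0.05 and -0.18 ± 0.06, the latter with opposite signs in the dye orientations (0.13 and -0.50). Of 16 measured Klf6 targets, 9 had estimates above 0 and 7 below (median 0.0060), and 7 and 9 without arrays 7, 8 and 15. The receptor genes Igf1r, Tgfbr2 and Acvrl1 were at -0.14 ± 0.04 (adjusted p = 0.457), 0.13 ± 0.08 and -0.12 ± 0.08. Acvrl1 too had opposite signs in the orientations (-0.47 and 0.24), and without array 1 it was at -0.061. Single probes of these genes disagreed in sign: 0.25 and -0.020 for Tgfbr2, -0.29 and 0.11 for Acvrl1, and from -0.26 to 0.012 for Igf1r. At an unadjusted p under 0.05 in limma there were 1 of 11 AP-1 partners, 2 of 19 genes of the kinase route, 2 of 12 of the KLF family, 6 of 33 immediate early genes, 5 of 20 Jun targets and 1 of 16 Klf6 targets, where 7.02% of all genes reached it. Among the marker and handling lists, 4 of 16 myeloid markers, 2 of 11 heat shock or handling genes and 1 of 13 pluripotency markers did so. Of the B cell, T and NK cell and fibroblast markers, 0 of 7, 0 of 12 and 0 of 17 did. S100a9 is counted both among the Jun targets and among the myeloid markers. As all lists were chosen with earlier results of these data known, nothing is read from these shares.

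Ratios of treated to untreated RNA do not show whether a marker is expressed, so the identity of the line could not be checked. Markers of pluripotent cells (13 measured), B cells (7), T and NK cells (12), myeloid cells (16), fibroblasts (17) and heat shock or handling genes (11) held no gene past the threshold, with medians from -0.081 (myeloid, 13 of 16 below 0) to 0.074 (fibroblast, 12 of 17 above 0). Without arrays 7, 8 and 15 these medians were -0.043 and 0.0094, and with the swaps turned 0.072 (11 of 16 above 0) and -0.022 (10 of 17 below 0). Jun and Klf6 are expressed in many of these cell types, and the part of such cells in the values of Jun and Klf6 was not tested. In bulk RNA, fewer cells of a type and less RNA per cell cannot be told apart.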

How the data were processed

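The deposited table gives, for 15 arrays, log2 ratios of the channels made by the authors; their range shows the log2 scale. For normalization, background correction and spot filter the sources used here name nothing, and scanner signals were not analysed here. Of the probes, 13891 had a single symbol in the platform annotation, 5 had more and 6309 lacked one; 13855 were matched to RefSeq (GRCm38.p6). The 1999 values with an absolute log2 above 10 were set missing; none was at a Jun or Klf6 probe.

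Probes, and means of a gene's probes, were fitted over the whole table if each orientation had values on 4 or more arrays, with limma 3.58.1 (lmFit, eBayes) in R 4.3.3, with a term for the orientation. Benjamini-Hochberg adjusted p under 0.05 over all probes or genes was the threshold. Correlations had 100000 permutations within orientation. The fit was tested on simulated data. P-values measure only the spread between arrays and are too small if swaps repeat RNA extracts. All 4 member probes passed the filter.

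Members and lists were chosen with earlier results of these data known. Named were all Jun and Klf6 probes, the 3 genes of smallest p in each list and a fixed set of relatives; marker lists are given by counts. Junb, Klf2, Klf3, Klf4, Klf5, Klf7, Klf13, Fosb, Fosl1, Atf3, Sp1, Mapk8, Mapk9 and Map2k4 are of that set.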

Additional observations from a re-analysis of the deposited data

Results flagged for a closer look

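Within each dye orientation, single arrays lay farther from the rest than Dixon's criterion allows for Jun probe 3296 and for 8 other named genes. This was so in 9 of 72 groups tested. The nominal rate of the criterion, about 1 in 20, holds for normally distributed values. The share over all probes was not counted, so the number is not read as particular to these genes. Jun probe 3296 stood at 0.84 on array 14 (next highest swap, 0.17). With the treated RNA in Cy5, Klf2 was at -3.36 and Sp1 at -0.69 on array 1, Klf9 at -0.60 on array 2, and Atf4 at -1.82, Id2 at -2.33 and Mafk at -3.21 on array 7. On the swaps, Junb was at 2.59 on array 12 and Klf4 at 1.75 on array 15. Arrays 7 and 15, which hold 4 of these values, are among those that stood apart over all probes.

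The named genes Acvrl1 and S100a9 differed between orientations in limma. The dye effect of Acvrl1 was -0.36 ± 0.08 (SE, adjusted p = 0.0358), with means of -0.47 for the treated RNA in Cy5 and 0.24 on the swaps. That of S100a9 was 0.31 ± 0.06 (adjusted p = 0.0126), with means of 0.13 and -0.50.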

How the results depend on the processing

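Under all 15 omissions of 1 array, each Jun and Klf6 probe kept the sign of its treatment estimate. Since the genes were chosen on the values behind these estimates, the kept signs are a description. The estimates ran from 0.050 to 0.14 for Jun 3296, 0.29 to 0.38 for Jun 5735, -0.61 to -0.48 for Klf6 421 and -0.22 to -0.079 for Klf6 1985. Of the 14 other settings (13 for Jun 5735, which lacks a value on array 2), only the fit of the swaps alone turned a sign, that of Klf6 1985 (0.0039); array weights gave it -0.087, and turning the swaps reduced the other 3 as given above. With the most measured probe in place of the mean, Jun was at 0.11 and Klf6 at -0.57. No dye effect of these probes passed under the settings run, leaving aside the swaps turned, where it is the treatment estimate and no test is read from it. Medians of the AP-1 and Klf6 target lists turned to -0.015 and -0.022 without arrays 7, 8 and 15; with dim values left out, those of the Jun and Klf6 targets were -0.095 and -0.043 and that of the KLF family 0.049. The Jun target and T and NK cell medians were -0.031 and -0.0087 without arrays 7, 8 and 15. With the swaps turned, 15 of 29 named genes changed sign, among them Ier3 (0.15), Klf13 (0.19), Srf (0.16), Map2k4 (-0.10), Mafk (0.18), Tgfbr2 (-0.12) and S100a9 (0.31). The share of sign changes over all genes was not counted. S100a9 and Acvrl1 (-0.36) passed there, as did 254 of all 9720 genes (2.61%). For lists this setting was added after the data were seen: the medians of the immediate early, myeloid and fibroblast lists became 0.011, 0.072 and -0.022, and 1 Jun target, 2 Klf6 targets and 1 myeloid marker passed. The Jun target and the myeloid marker are the same gene, S100a9. Robust regression called 60 genes in all, where the main fit called 4, and Btg2, Id2 and Mmp13 were among them (adjusted p = 0.0270, 0.00406 and 0.00740). The lists that hold these 3 genes were chosen with earlier results of these data known, so nothing is read from these calls.

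Counts over the whole table moved more, for causes not tested. The 10 probes past the threshold became 545 with the swaps turned, 0 in limma with the treated RNA in Cy5 alone (2656 at an unadjusted p under 0.05) or in Cy3 alone (2793), 2 without arrays 7, 8 and 15, 23 with array weights and 97 with robust regression, and 4 to 13 with 1 array left out. The 4 genes became 8 with placeholders left in, 8 with the most measured probe, 254 with the swaps turned, 0 in limma for either orientation alone and without arrays 7, 8 and 15 (1274, 1413 and 754 at an unadjusted p under 0.05), 11 with array weights and 60 with robust regression, and 0 (without array 10; 613 unadjusted) to 7 (without array 6) with 1 array left out. The 545 probes with a dye effect became 10 with the swaps turned, 1031 without arrays 7, 8 and 15, 1456 with array weights, 2396 with robust regression, and 185 (without array 6) to 874 (without array 7) with 1 array left out. How far a spot stood above background is unknown without scanner signals. No paired analysis was possible because the labels do not tie a swap to an array of the same RNA extracts; each ratio already sets treated against untreated RNA on 1 array.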
